A study of Sus scrofa with 14 samples.

Results

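Circular RNAs (circRNAs) of HDAC2 were examined across the developing pig brain. All lines of the deposited tables that named HDAC2 as host gene were taken, which gave 6 distinct circRNAs of 6720 listed in either table. A table of forebrain and cortex listed 5 of them among 5585 circRNAs, and a table of 5 brain regions listed 4 among 3967, with 3 in both. The gene was chosen because its most abundant circRNA was high in mid-gestation cortex and low near term, so its levels over stages and regions are given as a description with no test. Tests were run only on their relation to the host gene's level and on regions other than cortex.

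HDAC2 is a class I histone deacetylase, an enzyme that removes acetyl groups from histone tails and works in the nucleus within the SIN3, NuRD and CoREST repressor complexes. In mice, the enzyme and its close relative HDAC1 are needed for neural progenitors to give rise to neurons. A circRNA forms when splicing links the donor site of an exon backwards to an acceptor site upstream, and the reads that cross this backsplice junction tell it apart from the linear messenger RNA of the same gene.

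Embryonic pig brain was sampled in 14 libraries. A stage series held forebrain at embryonic day (E) 23 followed by cortex at days E42, E60, E80, E100 and E115, and values of the series are given below in this order of 6 stages. Hippocampus, cerebellum, brain stem and basal ganglia were each sampled at E60 and at E115. The labels give no genotype, treatment or sex, and they name 1 library for each region and day with no replicate, so the spread between animals could not be estimated. Since E23 is forebrain and not cortex, day and tissue cannot be told apart in a difference of E23 from later stages. The RNA came from whole dissected regions, in which fewer cells of a type and less RNA per cell cannot be told apart.

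The forebrain and cortex libraries had 21.4 to 58.8 M (1e6) reads in total and 8098 to 17336 circRNA reads, in lines whose library reads added up to their stated total. The libraries of the other 4 regions had 9.67 to 37.7 M reads and 518 to 6056 circRNA reads. Levels are junction reads per M library reads (RPM) with 95% exact Poisson intervals, shares have 95% exact Clopper-Pearson intervals, and ratios have 95% exact conditional intervals. All of these cover counting error only, since no group had a replicate library. They also take each read as independent. The reads carried no molecular identifiers, so copies of the same molecule could not be told apart. Where such copies were counted, the intervals are too narrow even for counting error.

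The FPKM values (fragments per kb of transcript per M) of host genes, deposited beside the junction reads, went against some of their column headings in the regions table. Over 1525 host genes in both tables, the E60 cortex FPKM of the cortex table correlated at r = 0.96 (log2 of FPKM + 1, across genes) with the column headed hippocampus E60 and at 0.70 with the column headed cortex E60. For E115 the values were 0.97 and 0.72, and the column headed brain stem E115 had 0.84. Results that rest on the FPKM columns headed cortex and hippocampus in that table are therefore also given without them. The FPKM headings of basal ganglia, brain stem and cerebellum could not be checked in this way, since only the regions table lists them. They may be wrong too. The junction reads of the E60 and E115 cortex were the same in both tables for all 3 HDAC2 circRNAs that both list.

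All 6 HDAC2 junctions lay on the minus strand of chromosome 1 (build Sscrofa10.2), within 17975 bases from 89933207 to 89951181. The most abundant joined ends only 283 bases apart (89940534 to 89940816). It had 843 reads in the forebrain and cortex table, the third highest number of all circRNAs whose reads added up, and 401 reads in the regions table, the fifth highest. The second joined ends 680 bases apart (89946850 to 89947529) and had 76 and 37 reads, and the third, with ends 4332 bases apart (89946850 to 89951181), had 33 and 13 reads. The other 3 were rare. The circRNA with ends 15637 bases apart (89934335 to 89949971) had 4 reads, and that with ends 2764 bases apart (89933207 to 89935970) had 2 reads, all in the E42 cortex. The circRNA with ends 6996 bases apart (89940534 to 89947529) had 1 read in the E60 cortex and 1 in the E115 cerebellum.

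Junction ends were shared among 4 of the 6. The 680-base and 4332-base circRNAs had the same lower end, which is the splice donor side on the minus strand. The rare 6996-base circRNA joined the donor side of the 283-base circRNA to the acceptor side of the 680-base circRNA, across the 6033 bases that separated those 2 spans. The 283-base span was short for this data set, where circRNAs had a median genomic span of 9783 bases in the cortex table. Of 803 circRNAs with at least 20 reads there, 13 (1.62%) had a span of 283 bases or less. Whether these ends lie at exon boundaries was not examined here.

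**Figure D1:**
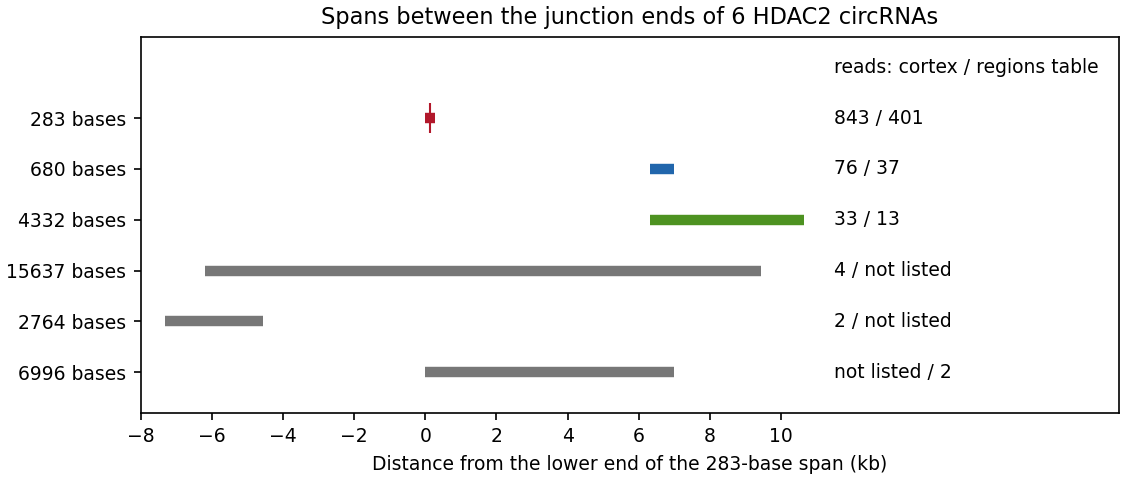
Bars show the genomic span between the junction ends of each HDAC2 circRNA, in kb from the lower end of the 283-base span, with its reads in the cortex and regions tables at the right. The shortest span had the most reads, 843 and 401, and the 680-base and 4332-base spans start at the same place.

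Not all reads of a junction were distinct in sequence. Of 843 reads of the 283-base circRNA, 319 (37.8%) were counted as unique in the cortex table, and 175 of 401 (43.6%) in the regions table. Among the 20 circRNAs with the most reads, this share ran from 37.1% to 69.7% with a median of 54.5% in the cortex table, and from 32.5% to 77.5% with a median of 60.2% in the regions table. The 283-base circRNA was thus near the low end of both ranges. The 680-base circRNA, with fewer reads, had 56 unique reads of 76 (73.7%). The part that repeated reads have in the levels and their intervals was not tested, since unique reads were given for all libraries together.

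Among the circRNAs whose reads added up, the 283-base circRNA was the most abundant of the cortex at E42 and again at E60. Near term it was among the minor ones. From E23 to E115 it had 139, 298, 311, 35, 51 and 9 reads. The E42 level was 11.2 RPM (9.93 to 12.5) and the E60 level 14.5 RPM (12.95 to 16.2). Before them E23 had 2.36 RPM (1.99 to 2.79), and after them E80 had 1.31 (0.915 to 1.83), E100 had 1.05 (0.783 to 1.38) and E115 had 0.167 (0.0762 to 0.316). The 2 mid-gestation libraries stood above all others and the E115 library below all others. Among the circRNAs of each library whose reads added up, its rank was 8, 1, 1, 24, 26 and 218 in stage order.

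The steps between stages were of unequal size. From E23 to E42 the level was 4.73 times as high (3.85 to 5.82), while the level of all circRNA reads was 2.26 times as high. From E42 to E60 it was 1.30 times as high (1.11 to 1.53), close to the 1.26 of all circRNA reads, and the interval held no difference per circRNA read (1.03, 0.878 to 1.21) or with TMM scaling of the circRNA reads (0.990, 0.842 to 1.16). Per library read, the largest step between neighbouring stages came between E60 and E80, where E60 held 11.1 times the level of E80 (7.78 to 16.2), against 2.66 for all circRNA reads. Between E42 and E80, whose library totals were nearly equal at 26.7 and 26.6 M reads, the ratio was 8.50 (5.97 to 12.4). The levels at E80 and E100 did not differ beyond counting error (ratio 1.25, 0.789 to 1.96). E100 then held 6.30 times the level of E115 (3.07 to 14.6). In the order of levels from E60 down to E42, E23, E80, E100 and E115, E80 and E100 were the only neighbours whose interval held 1.

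The total of circRNA reads was also lower at the end of the series, from 809.6 RPM at E60 to 216 at E115, a ratio of 3.75 (3.66 to 3.84). As a share of all circRNA reads of its library, the 283-base circRNA made up 0.832%, 1.74%, 1.79%, 0.432%, 0.388% and 0.0772% from E23 to E115. Its ratio of E60 to E115 was thus 23.2 (12.1 to 51.3) per circRNA read and 24.2 with TMM scaling, against 87.1 per library read. Per circRNA read the ratio of E60 to E80 was 4.15 (2.92 to 6.07) and that of E100 to E115 was 5.03 (2.45 to 11.6), so the order of these steps depended on the scale. The direction of E60 against E80 and E115 was the same on each scale, and the size was not.

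**Figure D2:**
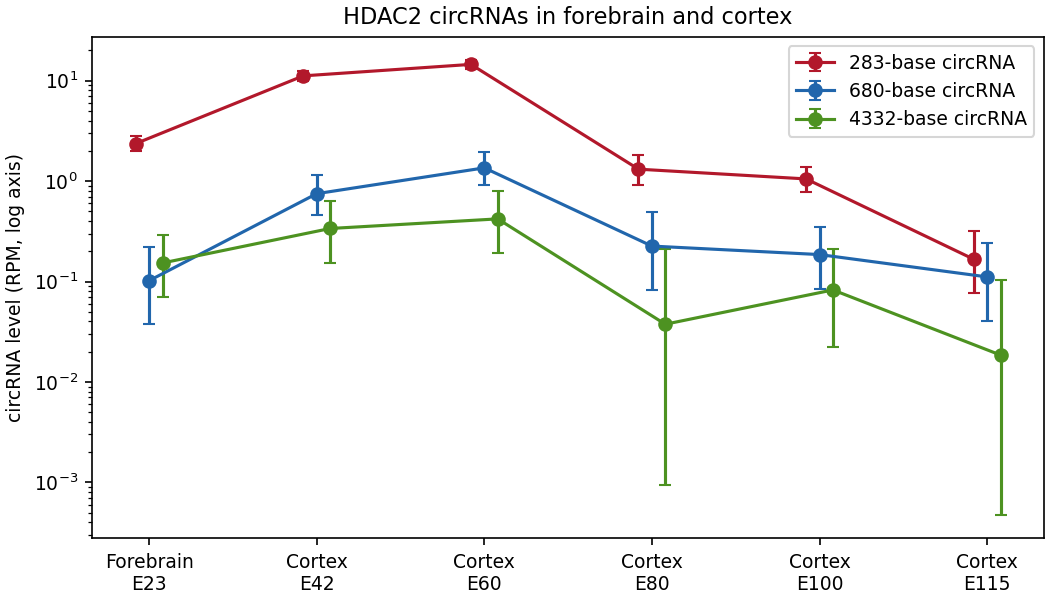
Levels of the 3 most abundant HDAC2 circRNAs in RPM on a log axis, by stage; points are single libraries and bars are 95% exact Poisson intervals. All 3 were highest in the E60 cortex per library read, and with TMM scaling the 283-base and 4332-base circRNAs were highest at E42. The 283-base circRNA was at 14.5 RPM at E60 and 0.167 RPM at E115, where its interval overlaps that of the 680-base circRNA.

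The 680-base circRNA differed less between E60 and E115. It had 6, 20, 29, 6, 9 and 6 reads from E23 to E115, or 0.102, 0.749, 1.35, 0.225, 0.185 and 0.111 RPM. Its level was high at E42 and E60 and close to equal at E23 and E115. The ratio of E60 to E115 was 12.2 (4.97 to 35.9), that of E60 to E80 was 6.01 (2.45 to 17.7), and that of E60 to E23 was 13.3 (5.42 to 39.1). At the start of the series it was scarce next to the 283-base circRNA, whose E60 to E23 ratio was 6.15 (5.02 to 7.56). Between E23 and E115 the 283-base circRNA differed 14.2-fold (7.25 to 31.6) and the 680-base circRNA did not differ beyond counting error (0.918, 0.245 to 3.43).

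The 4332-base circRNA was at a few reads throughout. It had 9, 9, 9, 1, 4 and 1 reads from E23 to E115, or 0.153, 0.337, 0.420, 0.0376, 0.0824 and 0.0185 RPM. The 3 earlier libraries were above the 3 later ones. The ratio of E60 to E115 was 22.7, with an interval from 3.14 to 994.6 that reflects the single read at E115, and that of E60 to E23 was 2.75 (0.966 to 7.81). For the 15637-base circRNA, 4 reads at E42 were 0.150 RPM (0.0408 to 0.384). The 0 reads in each other library of the series allow up to 0.0510 RPM at E23 and 0.140 at E60, taking 3 reads as the limit. For the 2764-base circRNA, with 2 reads at E42, the level of 0.0749 RPM was below the 0.112 RPM that 3 reads stand for in that library.

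All HDAC2 circRNAs together had 154, 333, 349, 42, 64 and 16 reads from E23 to E115. Their level was 2.62, 12.5, 16.3, 1.58, 1.32 and 0.296 RPM in the same order. The ratio of E60 to E115 was 55.0 (33.4 to 97.3) for the sum, 14.7 per circRNA read and 15.3 with TMM scaling. Without the 283-base circRNA it was 13.7 (6.04 to 36.3), from 38 and 7 reads.

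The share of the 283-base circRNA among the HDAC2 circRNAs is a description too, since its low level at E115 was part of what the gene was chosen on. Of the HDAC2 circRNA reads, the 283-base circRNA supplied 90.3% at E23 (84.4 to 94.4), 89.5% at E42 (85.7 to 92.6) and 89.1% at E60 (85.4 to 92.2). The later libraries had 83.3% (E80, 68.6 to 93.0), 79.7% (E100, 67.8 to 88.7) and 56.25% (E115, 29.9 to 80.2). The first 3 libraries were alike and the E115 library was the lowest. Library scaling cancels in these shares. The odds of a read coming from the 283-base circRNA were 6.31 times as high at E60 as at E115 (1.88 to 20.3) and 7.07 times as high at E23 as at E115 (1.94 to 25.1). They did not differ beyond counting error between E60 and E80 (1.63, 0.573 to 4.09), between E60 and E100 (2.08, 0.95 to 4.34) or between E100 and E115 (3.0, 0.792 to 11). The E115 value rests on 16 reads. Against the 680-base circRNA alone, the 283-base circRNA had 23.2 times its reads at E23 (10.4 to 64.2), 10.7 at E60 (7.32 to 16.3), 5.83 (E80), 5.67 (E100) and 1.5 (E115, 0.477 to 5.12).

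**Figure D3:**
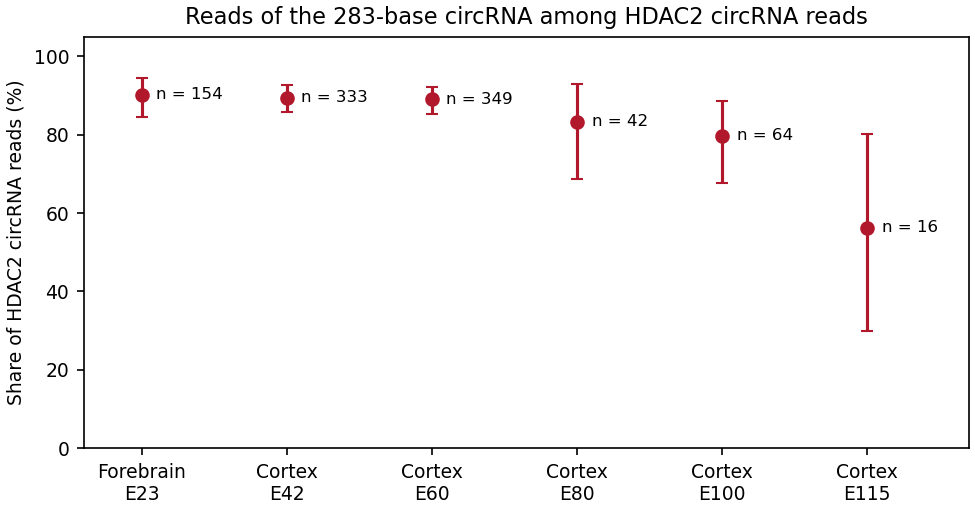
Share of HDAC2 circRNA reads that came from the 283-base circRNA, in percent, by stage; points are single libraries, bars are 95% exact Clopper-Pearson intervals and n is the number of HDAC2 circRNA reads. The share was 89.1% to 90.3% up to E60 and 56.25% at E115, where n was 16.

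Set beside all circRNAs of the cortex table, 803 had at least 20 reads over the 6 libraries, among them 3 of the 5 HDAC2 circRNAs. With 0.5 reads added, 53.2% of the 803 were at least 4 times as high at E60 as at E115, and all 3 HDAC2 circRNAs were. At least 4 times as high at E60 as at E80 were 36.1%, and again all 3. Highest at E60 were 52.2%, and all 3. At least 4 times as high at E60 as at E23 were 44.0%, and 2 of the 3, the 4332-base circRNA not being among them. Scaled by circRNA reads, the shares were 14.1% for E115 with 2 of the 3 HDAC2 circRNAs, 10.5% for E80 with 1, 17.9% for E23 with 1 (the 680-base circRNA) and 22.9% highest at E60 with 2. The 283-base circRNA passed the first 2 of these folds and the 4332-base circRNA the first. With TMM the share for E115 was 14.6%, again with 2 of the 3. These contrasts include the one the gene was chosen on, so nothing is read from the counts. The 283-base circRNA had a log2 ratio of E60 to E115 of 6.37, rank 9 of 803, where the median was 2.12 (0.22 when scaled by circRNA reads). The 680-base circRNA had 3.52, rank 169, and the 4332-base circRNA had 4.0, rank 110. For E60 over E80 the 283-base circRNA had 3.45, rank 79, with a median of 1.45, and for E60 over E23 it had 2.62, rank 249, with a median of 1.70.

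The host gene followed another time course. HDAC2 FPKM in the cortex table was 175.9, 294, 149.96, 72.4, 59.0 and 42.2 from E23 to E115. The highest library was E42, one stage before the circRNA maximum per library read, and E23 stood above E60. Between E42 and E60 the gene came to 0.509 times its FPKM while the 283-base circRNA was 1.30 times as high per library read and 0.990 times with TMM. Between E60 and E115 the gene differed 3.55-fold. The level of the 283-base circRNA per host FPKM (RPM divided by FPKM) was 0.0134, 0.0379, 0.0969, 0.0182, 0.0178 and 0.00395 in the same order. It stood out at E60 and was 24.5 times as high there as at E115.

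Other circRNAs also parted from their hosts. At E42 and E60, 792 circRNAs with at least 20 reads had a host FPKM of at least 1. Of these, 39.8% were higher per library read at E60 than at E42 while the host was lower. All 3 HDAC2 circRNAs were among them. The interval of E60 over E42 held 1 for the 680-base (1.81, 0.988 to 3.37) and the 4332-base circRNA (1.25, 0.438 to 3.54). With TMM scaling the 283-base and 4332-base circRNAs were highest at E42, as the host was. For E60 over E115, 44.1% of 782 circRNAs had a ratio at least 4 times that of the host. This held for the 283-base circRNA (log2 difference 4.54, rank 54, where the median was 1.70) and for the 4332-base circRNA (2.17), but not for the 680-base circRNA (1.69). The host itself had one of the larger differences between these stages. Its log2 ratio of E60 to E115 was 1.83, and 68 of 2136 host genes of the table had a larger one, while 49.2% were lower at E115 and the median was -0.02.

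Over the 6 libraries, the summed HDAC2 circRNA level and the host FPKM correlated at Pearson's r = 0.68 (exact permutation p = 0.203, two-sided) and Spearman's rho = 0.83 (exact permutation p = 0.0583). In a family of 4 such tests the adjusted p was 0.242 and 0.233. Without E42 and E115, the libraries farthest from the median FPKM, r was 0.48. On the log2 scale r was 0.87 (exact permutation p = 0.0222, adjusted p = 0.0889 over the same 4 tests on that scale). No adjusted p passed 0.05 on either scale. The stages are ordered in time, which the permutations ignore, and the circRNA levels include those the gene was chosen on. These p-values therefore cannot decide whether circRNA and host go together.

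**Figure D4:**
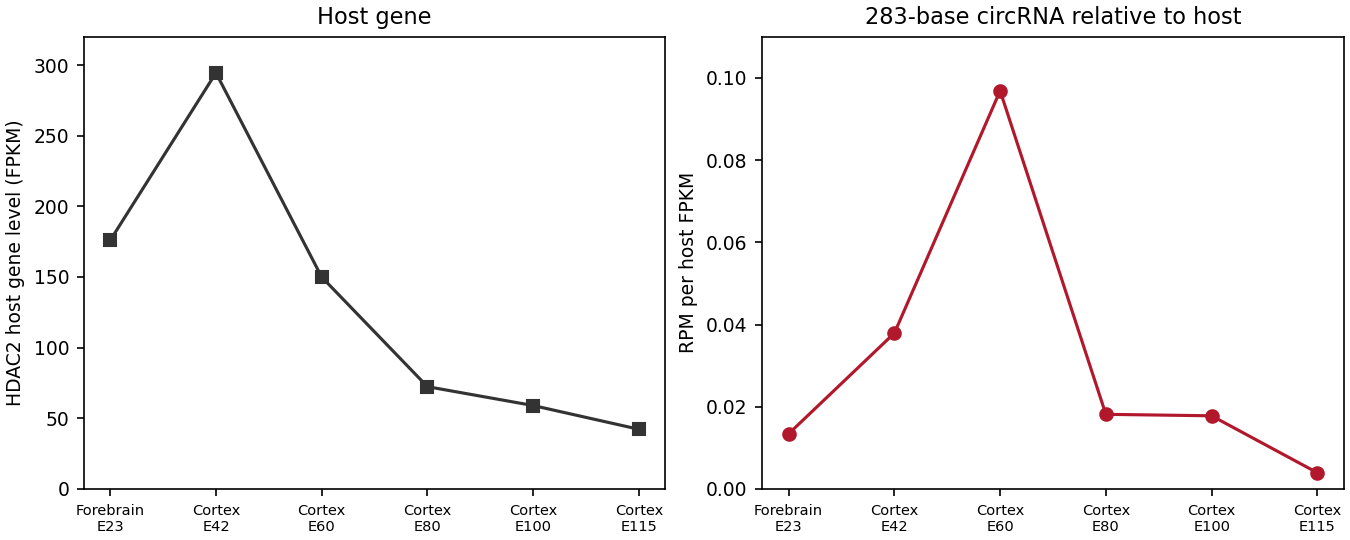
Left, HDAC2 host gene FPKM by stage; right, level of the 283-base circRNA in RPM divided by host FPKM. Points are single libraries; the host was highest at E42 with 294 FPKM, and the ratio was highest at E60 with 0.0969.

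Marker genes of cell types differed over the same stages. The tables give FPKM only for genes that host a circRNA, so most markers had no value. Of 15 markers of progenitors and cycling cells, 5 had FPKM values, which summed to 371, 300.0, 61.9, 47.9, 67.2 and 43.9 from E23 to E115. Within this sum TOP2A, a topoisomerase of dividing cells, went from 206 at E23 to 2.15 at E115. At E115 the sum was mostly SOX2, a transcription factor of neural progenitors that glia also express, with 36.9. Of 13 neuron markers, 6 summed to 46.3, 462, 301, 422, 702 and 835. DCX, a marker of immature neurons, went the other way in the later stages, with 129.9 at E42 and 18.2 at E115. Of 16 markers of vessels, blood and microglia, only FLT1 had a value, 1.25 at E60 and up to 15.2 at E100, and of 14 glia markers none had a value. The progenitor sum was 61.9 at E60, where the 283-base HDAC2 circRNA was highest per library read. It was 300.0 at E42, where that circRNA was highest with TMM scaling. The part of these differences in the HDAC2 levels was not tested.

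Outside the cortex the 283-base circRNA was found in every library, at a low level. It had 311 reads in the E60 cortex and 90 in the other 9 libraries of the regions table together. Basal ganglia had 9 reads at E60 (0.862 RPM, 0.394 to 1.64) and 6 at E115 (0.620, 0.228 to 1.35). Brain stem had 4 at E60 (0.303, 0.0825 to 0.775) and 24 at E115 (0.637, 0.408 to 0.948). Both regions were well below the E60 cortex at 14.5 RPM. Cerebellum had 8 reads at E60 (0.778 RPM, 0.336 to 1.53) and 22 at E115 (1.40, 0.878 to 2.12). Hippocampus had 6 at E60 (0.225, 0.0825 to 0.489) and 2 at E115 (0.175, 0.0212 to 0.631). The E115 cortex, at 0.167 RPM, was the lowest of the 10 libraries and the E115 cerebellum the highest after the E60 cortex. Below the E60 cortex, no library differed beyond counting error from its neighbour in the order of levels. Libraries further apart in that order could differ. The intervals of the E115 cerebellum, E115 brain stem, E60 basal ganglia and E60 cerebellum lay above that of the E115 cortex (0.0762 to 0.316).

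The E60 cortex held 10.4 times the level of the E115 cerebellum (6.73 to 16.8), 16.9 times that of the E60 basal ganglia (8.77 to 37.2), 22.8 times that of the E115 brain stem (15 to 36.1) and 64.6 times that of the E60 hippocampus (29.4 to 177). Part of this was shared by all circRNA reads, whose level in the E60 cortex was 1.78 times that of the E115 cerebellum and 9.30 times that of the E60 hippocampus. Per circRNA read the ratio was 5.84 to the E115 cerebellum (3.79 to 9.45), 6.95 to the E60 hippocampus (3.16 to 19.1) and 2.75 to the E60 brain stem (1.06 to 10.1). The E60 brain stem had only 518 circRNA reads, 4 of them from this junction. As a share of circRNA reads the 283-base circRNA made up 2.12% in the E60 cortex (1.89 to 2.37) and 0.112% in the E115 cortex (0.0512 to 0.212). In basal ganglia, brain stem and cerebellum the share lay between 0.363% and 0.772% at both days, and in hippocampus it was 0.305% at E60 and 0.116% at E115.

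Of 387 circRNAs with at least 20 reads in the regions table, 57.6% were highest in the E60 cortex, and 10.1% were at least 4 times as high there as in every other library. The 283-base circRNA was among both. Its log2 ratio of the E60 cortex to the next highest library was 3.34, rank 4 of 387, where the median was 0.38. These values include the contrast the gene was chosen on.

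**Figure D5:**
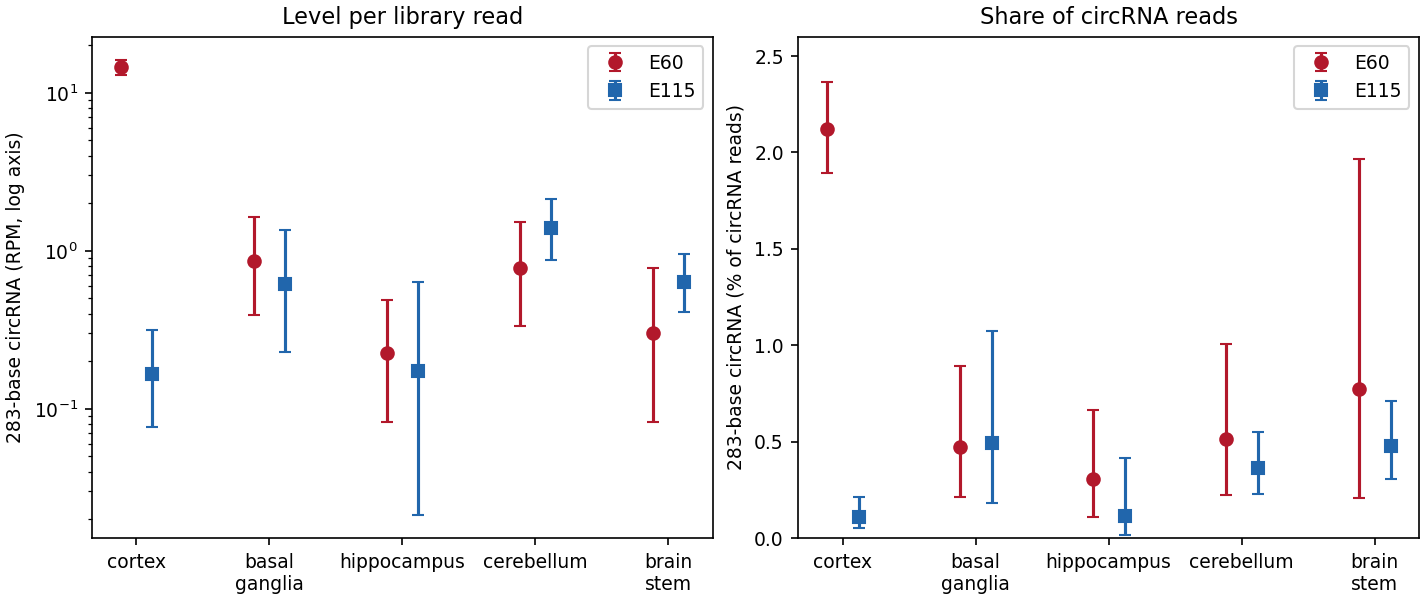
The 283-base circRNA in 5 brain regions at E60 (circles) and E115 (squares), left as RPM on a log axis with 95% exact Poisson intervals and right as percent of the library's circRNA reads with 95% exact Clopper-Pearson intervals. Each point is 1 library; the E60 cortex stood at 14.5 RPM and 2.12%, and the other 9 libraries lay between 0.167 and 1.40 RPM.

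The difference between E60 and E115 in cortex was not seen at that size in the other regions. The ratio of E115 to E60 was 0.720 in basal ganglia (0.211 to 2.26), 2.11 in brain stem (0.723 to 8.35), 1.80 in cerebellum (0.772 to 4.68) and 0.777 in hippocampus (0.0767 to 4.35), and 0.0115 in cortex (0.00520 to 0.0221). Per library read, all 4 intervals outside the cortex held 1 and lay above the cortex interval. In brain stem and cerebellum, where the point values were above 1, all circRNA reads were 3.39 and 2.54 times as high at E115. Per circRNA read the ratios were 0.621 in brain stem (0.213 to 2.46), 0.708 in cerebellum (0.304 to 1.84) and 1.05 in basal ganglia (0.307 to 3.30). The direction in these 3 regions thus turned with the scale. On that scale hippocampus had 0.380 (0.0375 to 2.13) and cortex 0.0528 (0.0239 to 0.102), and their intervals overlapped. Of the 387 circRNAs, 77.0% were higher at E115 in brain stem and 76.5% in cerebellum, as the 283-base circRNA was, and 46.0% were lower in basal ganglia and 28.4% in hippocampus, as it was there. At least 4 times as high at E60 as at E115 were 17.1% in basal ganglia, 3.62% in brain stem, 4.65% in cerebellum and 2.58% in hippocampus, against 56.8% in cortex. The 283-base circRNA passed this in cortex only. Summed over all HDAC2 circRNAs, the log2 change from E60 to E115 was -0.58 in basal ganglia, 0.93 in brain stem, 0.97 in cerebellum and 0.12 in hippocampus. Over these 4 regions the mean was 0.36 (exact sign-flip permutation p = 0.375, two-sided). The hippocampus value is above 0 through the 0.5 reads added to 3 and 7 reads, and its ratio without them was 0.999. The smallest p that 4 regions allow is 0.13, so this test could not pass 0.05.

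Most reads of the other HDAC2 circRNAs came from cortex, and the depth of the other libraries could not show low levels. In the regions table the 680-base circRNA had 29 reads in the E60 cortex, 6 in the E115 cortex, 1 in the E60 basal ganglia, 1 in the E115 hippocampus and 0 in the other 6 libraries. Where it had 0 reads the limit of 3 reads stands for 0.0797 RPM in the E115 brain stem and up to 0.310 RPM in the E115 basal ganglia, below the 1.35 RPM of the E60 cortex. The 4332-base circRNA had 9 reads in the E60 cortex, 2 in the E115 cerebellum, 1 in the E115 cortex, 1 in the E60 hippocampus and 0 in the others. In 4 of the 10 libraries the 283-base circRNA was the only HDAC2 circRNA with a read, among them the E115 brain stem with 24 of 24 reads (85.8% to 100%).

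Host FPKM in the regions table was 37.8 and 27.1 in basal ganglia at E60 and E115, 11.6 and 23.8 in brain stem, and 55.3 and 56.8 in cerebellum. Under the headings in doubt it was 68.5 and 31.6 for cortex, and 81.5 and 22.4 for hippocampus. In the 6 libraries of basal ganglia, brain stem and cerebellum, the 283-base circRNA had between 0.0141 and 0.0268 RPM per host FPKM. Host levels there ran from 11.6 to 56.8 FPKM. The ratios rest on 4 to 24 reads each, and the range leaves out their counting error. For the 4 reads of the E60 brain stem the level alone had an interval of 0.0825 to 0.775 RPM. These ratios therefore cannot show whether circRNA and host go together. The range also holds only if the FPKM headings of these regions, which could not be checked, are right. The cortex series, normalized separately, lay within the range of these 6 libraries at E80 (0.0182) and E100 (0.0178). It was below that range at E23 (0.0134) and E115 (0.00395), and above it at E42 (0.0379) and E60 (0.0969). With the regions table's own cortex column the E60 value was 0.212. The 2 tables are set side by side here without a test.

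Over the 10 libraries the summed HDAC2 circRNA level and host FPKM correlated at r = 0.43 (100000 permutations, p = 0.242) and rho = 0.43 (permutation p = 0.216). Adjusted over the 4 tests, both p-values were 0.242. The 10 libraries include the E60 and E115 cortex, whose circRNA levels the gene was chosen on. Without the E60 hippocampus and E60 cortex, the libraries with the FPKM farthest from the median, r was 0.79, and without the E60 cortex alone it was 0.27 (permutation p = 0.450). When the FPKM columns headed cortex and hippocampus were left out, an alternative chosen after seeing the data, the 6 remaining libraries gave r = 0.81 (exact permutation p = 0.0389) and rho = 0.89 (exact permutation p = 0.0333). Adjusted with the 2 tests over stages, both p-values were 0.0778. The FPKM headings of the libraries kept could not be checked, which limits these values and the marker values by region. Progenitor and cycling cell markers (5 of 15 with FPKM) summed to 152 in the E60 cerebellum, 91.4 in the E115 cerebellum and 8.09 to 20.3 in basal ganglia and brain stem, so cerebellum was high in both this sum and the host gene. SLC1A3, a glutamate transporter of glia and the only one of 14 glia markers with FPKM there, was also highest in cerebellum, with 129.5 at E60 and 399.5 at E115. It had 31.4 and 122 in basal ganglia and 21.1 and 238 in brain stem. The part of cell composition in this relation was not tested.

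The circRNAs most like the 283-base circRNA over the cortex series were found by Pearson's r of log2 RPM over 6 libraries, with 0.5 reads added, among 310 circRNAs with at least 50 reads, whose median r was 0.73. These points share library depth and the common time course of circRNA reads. The highest were circRNAs of CDK13, a kinase of transcription elongation (chromosome 18, 59685146 to 59696045, r = 0.996), and FCHO2, a protein of clathrin-mediated endocytosis (chromosome 2, 83908876 to 83909477, r = 0.99). The CDK13 circRNA had 2.58, 4.38, 4.34, 2.10, 2.0 and 1.28 RPM from E23 to E115. The shape was thus like that of HDAC2 and the range much smaller. Next came circRNAs of DEK, a chromatin protein (chromosome 7, 14663497 to 14671601, r = 0.99), and GNL3, a nucleolar GTPase (chromosome 13, 38024064 to 38025958, r = 0.99). With 1 read added these 4 were again among the 5 most alike. The 680-base HDAC2 circRNA had r = 0.84 and rank 104.

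Over the 10 libraries of the regions table, among 125 circRNAs with a median r of 0.59, the highest were circRNAs of MATR3, a nuclear matrix RNA-binding protein (chromosome 2, 147049942 to 147051156, r = 0.93), and DPP8, a dipeptidyl peptidase (chromosome 1, 181051819 to 181055410, r = 0.91). ATRNL1 (chromosome 14, 136879801 to 136888438, r = 0.90), DCUN1D1, a factor of cullin neddylation (chromosome 13, 130356500 to 130360814, r = 0.87), and ZCCHC6, a terminal uridylyltransferase (chromosome 10, 33080414 to 33081598, r = 0.86), followed. The MATR3 circRNA had 51 reads (2.38 RPM) in the E60 cortex and at most 7 reads in any other library. The circRNAs named here for the regions differ from those named for the cortex series.

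Other genes of the deacetylase pathway supplied far fewer circRNA reads. Of 74 genes of deacetylase complexes and histone acetyltransferases other than HDAC2, 17 were named as a host in the cortex table, with 40 circRNAs in lines that added up, and 4 hosts had circRNAs of at least 20 reads. The other class I deacetylases HDAC1, HDAC3 and HDAC8 were not found among the host names there, so no FPKM can be given for them. Of 518 hosts listed by Ensembl ID, 225 had a symbol, and a listed gene could be among the rest. The 6 circRNAs of the 4 hosts were all lower at E115 than at E60 (86.2% of all 803 were), 4 of them at least 4-fold (53.2% of all), and 3 were highest at E60 (52.2% of all). Their median log2 ratio of E60 to E115 was 2.45, next to 2.12 for all 803 circRNAs. The FPKM of the 17 hosts gave no common direction: 8 (47.1%) were lower at E115, close to the 49.2% of all hosts.

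Among these, KDM1A, the lysine demethylase of the CoREST complex, had a circRNA (chromosome 6, 75060283 to 75062084) with 7, 8, 17, 4, 3 and 2 reads from E23 to E115. Its FPKM was 61.0, 81.9, 29.2, 16.9, 15.9 and 13.6. As for HDAC2, the circRNA was highest at E60 per library read and the FPKM at E42. KAT6B, a histone acetyltransferase, had 2 circRNAs with at least 20 reads, of which 1 was at least 4 times as high at E60 as at E115. That one (chromosome 14, 83673622 to 83685562) had 1, 23, 25, 6, 8 and 1 reads, high at E42 and E60. RBBP4, the histone-binding subunit shared by NuRD and SIN3, had 12, 8, 9, 1, 0 and 3 reads (chromosome 6, 83025822 to 83028390). NCOR1, a corepressor that works with HDAC3, also had 2 circRNAs with at least 20 reads, of which 1 passed this 4-fold difference. That one had 18, 42, 21, 13, 18 and 12 reads (chromosome 12, 62443557 to 62447784), and its level was highest at E42. In every library of the series each of the 4 circRNAs whose reads are given here had fewer than the 283-base HDAC2 circRNA, except NCOR1 at E115.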

How the data were processed

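Total RNA without the small RNA fraction was depleted of ribosomal RNA (Ribo-Zero) and made into libraries with ScriptSeq v2, per the labels' protocols. Each deposited table, one for the stage series and one for the 5 regions, gives whole counts of backsplice junction reads per library, per the file headers. The authors also gave RPM values, from which library totals were recovered as reads divided by RPM; which reads a total counts is not given in the sources used here. FPKM of host genes was deposited beside them, per the file headers. The submitters' processing notes name Trim Galore, TopHat2, Cufflinks, Cuffdiff and build Sscrofa10.2 (susScr3), with no version numbers. The circRNA caller is not given in the sources used here. Other values, the unique reads and genomic lengths, were deposited per the file headers.

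Groups came from the sample labels, 14 libraries with 1 library a group. Whether separate animals were used is not stated in the labels. Value columns that matched no sample numbered 0. Only lines whose library reads added up to their stated total were used, 4997 of 5585 and 3776 of 3967, and all HDAC2 lines did. Levels were recomputed from counts, since RPM is listed at 0 for 1 read in the deposited tables. Log2 ratios of single circRNAs used 0.5 added reads, circRNAs with at least 20 reads and a fold of 4. Pearson and Spearman correlations across libraries used exact permutations (6 libraries) or 100000 permutations (10 libraries), two-sided, with Benjamini-Hochberg adjustment over 4 tests. Intervals were computed with scipy 1.17.1 (Python 3.11.15), and TMM factors with edgeR 4.0.16 in R 4.3.3, used for scaling only. No test across all circRNAs was run, since groups had no replicates. The calculations were tested on simulated data. Alternatives were other scalings, all lines, other minimum reads, other added reads, log2 values, the leading junction alone and libraries left out.

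Named circRNAs were all HDAC2 lines, the 5 of other hosts most like the leading one in each table (1 is not reported here), and the hosts with at least 20 reads from lists of deacetylase complexes and acetyltransferases, at most 3 a list. The gene, its circRNAs and these lists were chosen with earlier results of these data known. Of 9 lists of cell type and region markers, 2 had no gene with FPKM in either table.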

Additional observations from a re-analysis of the deposited data

Results flagged for a closer look

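Per library read, the log2 ratio of E115 to E60 of the 283-base HDAC2 circRNA was -6.37 in cortex and had the other sign in 2 regions, 0.93 in brain stem and 0.79 in cerebellum, with 0.5 reads added. The counting intervals in brain stem and cerebellum held no change. Per circRNA read the ratios were 0.621 and 0.708, the same direction as in cortex, so the opposite sign depends on the scaling. Each rests on 1 library a group, and the difference between regions was not tested.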

How the results depend on the processing

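The sign-flip test paired E115 with E60 within each of 4 regions. Beyond that no paired analysis was possible. Each region and day is a single library, and the labels give no replicate numbers that could pair libraries. Scaling by circRNA reads moved the E60 to E115 cortex ratio of the 283-base circRNA from 87.1 to 23.2 and of the HDAC2 sum from 55.0 to 14.7, and TMM factors moved them to 24.2 and 15.3. The ratio of the E60 cortex to the E115 cerebellum moved from 10.4 to 5.84 with circRNA reads and stayed within its interval with TMM (9.01). Over stages, the p-value of the correlation of the HDAC2 sum with host FPKM was under 0.05 before adjustment on the log2 scale (r = 0.87, exact permutation p = 0.0222). It was not after adjustment over 4 tests (0.0889). The stages are ordered in time and the circRNA levels include those the gene was chosen on, so this p-value cannot decide whether circRNA and host go together. Over regions the p-values were under 0.05 before adjustment only without the FPKM columns headed cortex and hippocampus, an alternative chosen after seeing the data. They were r = 0.81 (exact permutation p = 0.0389) and rho = 0.89 (exact permutation p = 0.0333), and neither passed after adjustment (0.0778). The count of circRNAs at least 4 times as high at E60 as at E115 in cortex was 427 of 803 (53.2%). It was 113 with circRNA read scaling and 117 with TMM. At 50 reads or more it was 146 of 311 (46.9%), and with no minimum 2175 of 4997 (43.5%). The count of circRNAs highest at E60 was 419 (52.2%), and in the same order 184, 192, 142 (45.7%) and 1930 (38.6%). At 50 reads or more, those at least 4 times lower at E115 numbered 21 in basal ganglia, 4 in brain stem, 3 in cerebellum and 5 in hippocampus, against 66, 14, 18 and 10. Fewer circRNAs were counted at the higher minimum, and more with no minimum, by construction. The cause of the other shifts was not tested. Scaling by circRNA reads, added for these regions after seeing the data, turned the E115 to E60 ratio of the 283-base circRNA in brain stem (2.11 to 0.621), cerebellum (1.80 to 0.708) and basal ganglia (0.720 to 1.05), with intervals that held 1 throughout. The other 31 alternative values kept their call, stayed within counting error or, for counts of circRNAs, were of similar size to the main count. An example is 472 of 873 with all lines against 427 of 803. Depth limits the E115 cortex (16 HDAC2 reads) and the regions outside cortex, where the 283-base circRNA had 2 to 24 reads.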
